A study of Mus musculus with 6 samples.

Results

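The genes described here encode the proteasome, its activators, its inhibitor and its assembly chaperones. They were chosen by symbol: every gene of the count table that GENCODE lists as protein-coding on GRCm38 with a symbol of Psm, 1 letter from a to g, and a digit. This gave 50 of 47729 genes, of which 48 had enough counts to be tested, among 15780 genes tested in all. The data are RNA-seq libraries of splenic mouse CD4 T cells, 2 for each of 3 groups. WT libraries came from wild type mice and were sorted as CD3+CD4+CD25-CD45RBhi, the gate for mature naive T cells. ON and OFF libraries came from RBPJind mice and were sorted as CD3+CD4+CD25-CD45RBint, the gate for immature naive T cells. Cleaved Notch receptors switch genes on together with the DNA-binding protein RBPJ, and RBPJind mice were given doxycycline (Dox) in their water to induce it. ON mice had Dox for 4 weeks, whereas in OFF mice it was withdrawn after 3 weeks and the cells were taken 1 week later. All 6 libraries carry the treatment label Dox, no duration is given for WT, and the promoter that drives the induced gene is not stated in them. The labels also do not say how many animals stand behind a library or how old they were. Every p-value here therefore measures the spread between these libraries alone, which may be technical.

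The proteasome is the protease complex that degrades most ubiquitin-tagged proteins in the cytosol and nucleus. Its barrel-shaped core is built from stacked rings of alpha subunits, which form the gate, and beta subunits, some of which cut peptide bonds. A regulatory particle caps the barrel: its base holds a ring of ATPases that unfold and thread the substrate, and its lid and receptor subunits bind ubiquitin chains and remove them. In lymphocytes and in cells exposed to interferon gamma, the constitutive catalytic subunits are largely replaced by immunoproteasome subunits, which alter the peptides made for MHC class I. The PA28 activator, a ring of the products of Psme1 and Psme2, can open the core without ATP, and both genes are induced by interferon gamma.

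The comparison of ON with WT sets immature cells that matured with Notch responsiveness against mature wild type cells; genotype, sort gate and maturity differ together and cannot be told apart. OFF against ON addresses the withdrawal of the inducer in the last week, and in it Notch responsiveness and Dox itself cannot be told apart. OFF against WT uses the same WT libraries as ON against WT, and each pair of comparisons has 1 group in common. Values are CPM, read counts relative to library size, with libraries scaled by TMM, a method that sets most genes level between them. A gene is called where the adjusted p of edgeR's quasi-likelihood test, corrected over all 15780 genes, was under 0.05, and the verbs rose and fell are kept for called genes. In an exact permutation test 2 libraries against 2 cannot give a two-sided p under 0.333.

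Gene counts per library ranged from 17025551 to 19319183, and 9.34% to 24.3% of the reads in the table had not aligned, with both ON libraries lowest (14.8% and 9.34%). Rbpj itself stood at 36.1 and 35.3 CPM in WT, 98.2 and 79.6 CPM in ON, and 29.8 and 31.7 CPM in OFF, so both ON libraries were above the other 4. The markers of the sorted cells were present, with Cd4 between 604 and 702 CPM in the 6 libraries. Summed CPM of 5 B cell markers were 6.04 and 5.41 in the WT libraries, 27.9 and 22.3 in the ON libraries and 22.1 and 34.1 in the OFF libraries, and those of 8 myeloid and dendritic markers 17.2 and 15.8, 48.7 and 43.8, and 39.2 and 54.6. Of the 8 myeloid and dendritic markers 7 were tested and 4 were called higher in ON than in WT, and of the 5 B cell markers 4. In OFF against WT 3 of the 7 and 5 of the 5 were called higher. Of all genes 9.68% were called higher in ON and 4.70% in OFF, each against WT. Summed CD8, NK, plasma cell and erythroid markers lay between 13.8 and 23.7, 0.635 and 2.16, 0.465 and 2.56, and 0.116 and 1.5 CPM. Of these, Cd8a was called higher in ON than in WT (0.419 and 1.28 CPM in WT, 5.72 and 5.85 CPM in ON, and 3.06 and 4.09 CPM in OFF; adjusted p = 0.00322) and in OFF than in WT (adjusted p = 0.0286), while Cd8b1 was not. The plasma cell gene Jchain was called higher in ON than in WT (0.0598 and 0.174 CPM in WT, 2.35 and 1.24 CPM in ON, and 1.56 and 0.661 CPM in OFF; adjusted p = 0.0119), and no NK or erythroid marker was called. Summed CPM of 18 proliferation genes were 363 and 342 in the WT libraries, 1819 and 1010 in the ON libraries and 927 and 1391 in the OFF libraries. Beside 9.68% and 4.70% of all genes, 17 of the 18 rose in ON against WT and 11 in OFF against WT. Their part in the results below was not tested. In these bulk samples, fewer cells of a type and less RNA per cell cannot be told apart.

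To show what surrounds the start sites of members that were called, the promoter windows of 4 of them are printed here, 3 with a motif match and 1 without, from 250 bases before to 50 after the RefSeq start on GRCm38.p6, in the direction of the gene. Capitals mark 3 motifs searched on both strands: GAAANNGAA, the core of the interferon-stimulated response element; TGACNNNGC, the antioxidant response element, which NFE2L1 is known to bind in proteasome genes when the proteasome is inhibited; and CCAAT, the NF-Y box.

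The window of Psme1 lies at chr14:55578244-55578543 on the + strand, that of Psmd4 at chr3:95042565-95042864 on the - strand, that of Psmc1 at chr12:100109952-100110251 on the + strand, and that of Psmb8 at chr17:34197945-34198244 on the + strand.
Psme1: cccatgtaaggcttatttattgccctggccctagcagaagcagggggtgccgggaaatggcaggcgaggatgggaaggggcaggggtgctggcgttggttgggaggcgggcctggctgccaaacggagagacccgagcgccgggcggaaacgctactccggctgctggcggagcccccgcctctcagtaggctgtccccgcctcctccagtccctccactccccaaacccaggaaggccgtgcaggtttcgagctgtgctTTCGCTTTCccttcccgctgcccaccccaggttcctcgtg
Psmd4: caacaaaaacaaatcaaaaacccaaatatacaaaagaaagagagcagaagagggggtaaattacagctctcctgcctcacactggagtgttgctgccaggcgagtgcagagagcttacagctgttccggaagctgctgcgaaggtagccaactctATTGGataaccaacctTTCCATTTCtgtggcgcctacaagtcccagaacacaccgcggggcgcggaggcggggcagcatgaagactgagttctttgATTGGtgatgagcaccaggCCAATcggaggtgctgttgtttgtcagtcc
Psmc1: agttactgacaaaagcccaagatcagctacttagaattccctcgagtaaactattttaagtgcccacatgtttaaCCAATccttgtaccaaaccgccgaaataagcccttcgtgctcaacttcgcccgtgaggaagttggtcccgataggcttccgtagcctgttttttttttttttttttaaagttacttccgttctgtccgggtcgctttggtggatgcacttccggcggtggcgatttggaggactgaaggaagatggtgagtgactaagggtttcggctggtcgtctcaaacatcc
Psmb8: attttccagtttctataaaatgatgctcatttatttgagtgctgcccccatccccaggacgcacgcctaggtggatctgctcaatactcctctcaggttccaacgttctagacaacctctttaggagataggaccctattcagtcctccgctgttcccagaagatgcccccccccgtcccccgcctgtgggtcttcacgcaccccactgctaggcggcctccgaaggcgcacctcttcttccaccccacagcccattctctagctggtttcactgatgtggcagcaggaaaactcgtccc

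Psme1 had 1 match, to the interferon core, on the - strand at 10 bases after the start. Psmd4 had 4, of which 3 were CCAAT and 1 the interferon core at 79 bases before the start. Psmc1 had 1 CCAAT at 175 bases before the start, and the Psmb8 window held none of the 3. Of the 8 called members 7 had a window, and those of Psma4, Psme2 and Psme2b, not printed, held no match either. The Psme1 and Psmb8 windows follow RefSeq starts and lie wholly inside the GENCODE genes (55578123 to 55581529 and 34197721 to 34201454). Bases before the GENCODE starts of Psme1 and Psmb8 were therefore not searched. The Psme2b window (48946361 to 48946660, - strand) lies wholly outside the GENCODE gene (48945354 to 48946190). For Psme2b the bases around the GENCODE start were thus not searched either. Of the 50 members 42 had a window, with 45 windows in all, and Psma8, Psmb1, Psmb2, Psmb7, Psmc3, Psmd3, Psmd7 and Psmg2 had none. GAAANNGAA was in 15.6% of the members' windows and in 8.56% of all 32851 windows, in Psmb3, Psmb4, Psmc2, Psmd4, Psmd9, Psme1 and Psmg4. TGACNNNGC was in 13.3% against 12.4%, in Psmb5, Psmb6, Psmc6, Psmd12, Psmd9 and Psme4, and CCAAT in 33.3% against 37.4%. A match describes letters only.

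Most proteasome genes were counted higher in ON than in WT, by small folds, and few of the differences were called one by one. Of the 48 tested members 8 (16.7%) were called between ON and WT, beside 14.8% of all genes tested. Psma4, Psmb8, Psmc1, Psmc3, Psmd4, Psme1 and Psme2 rose, and Psme2b fell; the 7 that rose were 14.6% of members, beside 9.68% of all genes, and the 1 that fell was 2.08%, beside 5.16%. The log2 fold change was above 0 for 45 of 48 members (93.8%), beside 48.3% of all genes. In 37 of 48 (77.1%) both ON libraries were above both WT libraries, beside 29.8% of all genes, and in 3 of 48 (Psme2b, Psmf1 and Psmg2; 6.25%) both were below, beside 30.0%. At an unadjusted p under 0.05, 22 members (45.8%) were higher in ON and 1 lower (2.08%), beside 17.1% and 13.4% of all genes. The median log2 fold change of the members was 0.29, with a range from -0.55 to 0.93, and that of all genes was -0.02. Leaving out WT 1 or WT 2 left 0 members called, when 2.92% and 2.08% of all genes were still called, and the medians without 1 library ran from 0.29 to 0.38.

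Between OFF and ON no member was called by edgeR's quasi-likelihood test, beside 1.03% of all genes (0.602% higher and 0.425% lower). At an unadjusted p under 0.05, 12 members (25%) were lower in OFF and 1 was higher (2.08%), beside 9.96% and 9.11% of all genes, or 13 (27.1%) beside 19.1% in either direction. DESeq2 called 4 members lower in OFF, Psma4, Psmc1, Psmd4 and Psme1, and limma-voom called 0, beside 3.15% and 0.837% of all genes by those tools. Both OFF libraries were below both ON libraries for 20 of 48 members (41.7%), beside 23.3% of all genes, and above for 2 (Psmf1 and Psmg2; 4.17%), beside 23.4%. The log2 fold change was above 0 for 9 of 48 members (18.8%), beside 50.1% of all genes, and its median over members was -0.14, against 0.00 for all genes. Without ON 1, with ON 2 as the lone ON library, 7 members were called, Psma4, Psmc1, Psmd4, Psmd7, Psme1 and Psmg4 lower and Psmf1 higher in OFF, when 3.55% of all genes were called. The medians of members without 1 library ran from -0.27 to -0.01.

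Between OFF and WT only Psme2b was called, and it fell (2.08% of members), beside 6.83% of all genes, 4.70% higher and 2.14% lower. At an unadjusted p under 0.05 Psmb8, Psmc3, Psmd2 and Psmd8 were higher (8.33%, beside 12.4% of all genes), and Psme2b was lower (2.08%, beside 9.70%). The median over members was 0.16, against 0.01 for all genes, and 40 of 48 log2 fold changes were above 0 (83.3%, beside 51.1%). For 24 of 48 members (50%) both OFF libraries were above both WT libraries, beside 29.8% of all genes, and for 1 (Psme2b; 2.08%) both were below, beside 25.8%. Without OFF 1 the one member called was Psmd8 (higher, log2 fold change 0.64, adjusted p = 0.0394), without ON 1 Psmd2 was called beside Psme2b (0.41, adjusted p = 0.0477), and without OFF 2, WT 1 or WT 2 no member was called. All genes called in those fits were 4.72% without OFF 1, 9.18% without ON 1, 1.90% without OFF 2, 1.32% without WT 1 and 1.27% without WT 2.

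**Figure D1:**
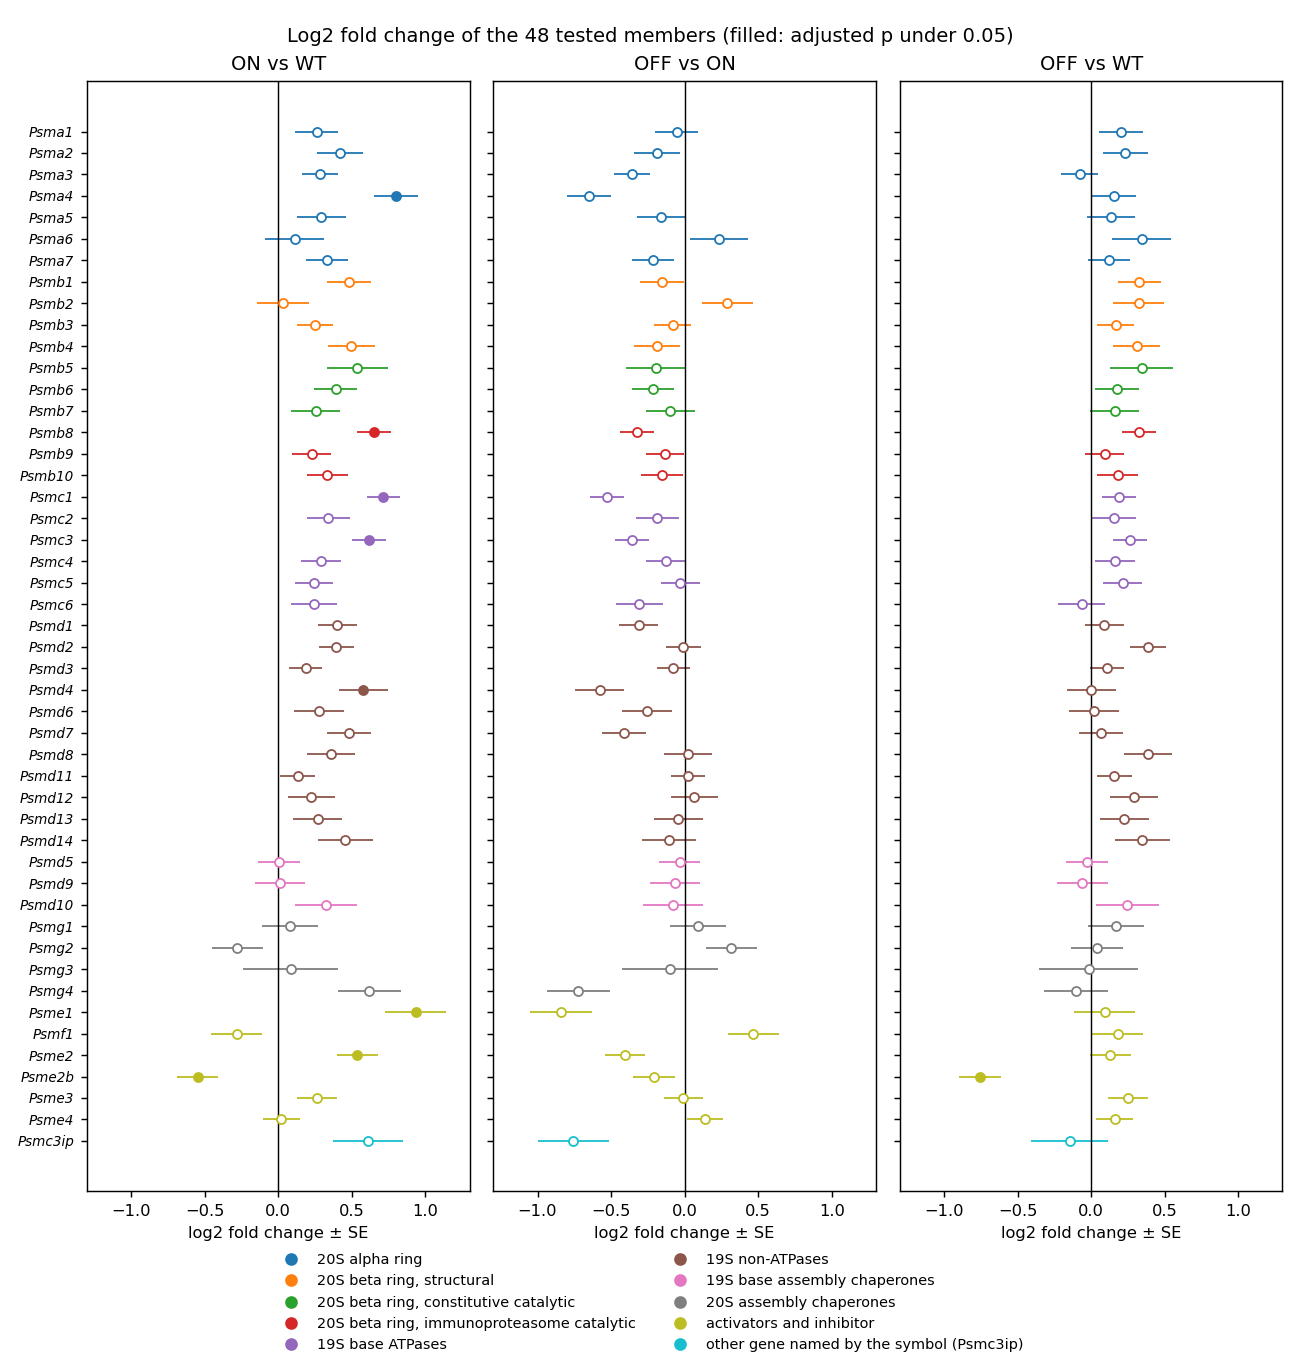
Log2 fold change with its SE of the 48 tested members (rows, coloured by role) in the 3 comparisons (panels); filled points have an adjusted p under 0.05. In ON against WT 45 of 48 points lie right of 0 and 8 are filled, in OFF against ON 9 lie right of 0 and none is filled, and in OFF against WT 40 lie right of 0 and Psme2b alone is filled.

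All members together took 0.251% and 0.261% of gene counts in the WT libraries, 0.355% and 0.384% in the ON libraries and 0.261% and 0.295% in the OFF libraries. In summed CPM WT reached 2569 and 2585, ON 3445 and 3681, and OFF 2721 and 3047. Both ON libraries were above the other 4, and both OFF libraries above both WT libraries. Per kilobase of exon, the scale on which genes can be compared with each other, the highest means in ON were those of Psme1 (267 ± 94.8 CPM per kb; SD, n = 2), Psmb8 (101 ± 0.101), Psme2 (79.9 ± 11.3), Psmd4 (70.4 ± 18.9) and Psma4 (60.9 ± 12.6). In ON neither Psme2 and Psmd4 nor Psmd4 and Psma4 differed beyond their spread. In WT the order was Psme1 (139.7 ± 7.22), Psmb8 (64.3 ± 2.88), Psme2 (55 ± 1.47), Psme2b (54.1 ± 3.33) and Psmd4 (47.2 ± 0.797), with Psme2 and Psme2b within their spread. In OFF it was Psme1 (149 ± 11.5), Psmb8 (80.7 ± 5.56), Psme2 (60.2 ± 6.76), Psmd4 (47.2 ± 1.14) and Psma4 (38.9 ± 2.31). Psma4 was there within its spread of the next 2, Psmc3 (38.3 ± 3.08) and Psma6 (37.4 ± 7.52). Exon length is the union over a gene's annotated transcripts, so a long rare transcript lowers its value per kb.

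Of the 17 tested genes of the core particle 17 had a log2 fold change above 0 in ON against WT (median 0.33), and 2 of them, Psma4 and Psmb8, were called. Summed CPM of the alpha and beta rings were 919 and 914 for WT, 1286 and 1232 for ON, and 986 and 1141 for OFF. Psma4, the alpha subunit whose tail helps to close the gate of the core (ENSMUSG00000032301, chromosome 9, 54950790 to 54958030), was counted at 82.3 and 83.4 CPM in WT, 123 and 166 CPM in ON, and 88.2 and 96 CPM in OFF. Both ON libraries were above the other 4, and ON 2 was 1.34 times ON 1. It rose 1.74-fold in ON against WT (log2 fold change 0.80 ± 0.15, SE; adjusted p = 0.00854), and stood 1.57-fold lower in OFF than in ON without being called (adjusted p = 0.0709; 0.00788 in DESeq2). OFF and WT differed by 0.15 ± 0.15 on the log2 scale (adjusted p = 0.620).

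The other tested alpha genes had log2 fold changes in ON against WT from 0.11 (Psma6) to 0.42 (Psma2), and none was called. Psma3 was the one alpha gene whose OFF mean lay below its WT mean (log2 fold change -0.08 ± 0.12, adjusted p = 0.780). Psma6 differed between ON libraries in the other direction from Psma4, at 39.2 and 33.5 CPM in WT, 46.5 and 32.1 CPM in ON, and 39.6 and 52.7 CPM in OFF. Of the structural beta genes Psmb1, Psmb2, Psmb3 and Psmb4, none was called in any comparison. Psmb1 had adjusted p = 0.0565 in ON against WT, at 71.5 and 67.7 CPM in WT, 107 and 87.7 CPM in ON, and 77.6 and 97.1 CPM in OFF, and Psmb4 adjusted p = 0.0642. Psmb2 had the smallest difference of the core, 0.03 ± 0.17 on the log2 scale, at 19.3 and 19.8 CPM in WT, 22.8 and 17.2 CPM in ON, and 22.5 and 26.4 CPM in OFF.

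The catalytic beta genes come as 3 pairs, a constitutive and an immunoproteasome form for each active site. Psmb8, the immunoproteasome subunit with chymotrypsin-like activity (ENSMUSG00000024338, chromosome 17, 34197721 to 34201454), had 211 and 224 CPM in WT, 342 and 341 CPM in ON, and 259 and 286 CPM in OFF. The 3 groups did not overlap, with ON highest and WT lowest, and the ON libraries were nearly equal. Psmb8 rose 1.57-fold in ON against WT (log2 fold change 0.65 ± 0.11, adjusted p = 0.00675); OFF against ON gave -0.32 ± 0.11 (adjusted p = 0.170) and OFF against WT 0.33 ± 0.11 (adjusted p = 0.128). Its constitutive counterpart Psmb5 was at 9.33 and 7.73 CPM in WT, 13.5 and 11.3 CPM in ON, and 12.1 and 9.49 CPM in OFF, with a log2 fold change of 0.54 ± 0.21 in ON against WT that was not called (adjusted p = 0.117). The ranges of ON and OFF overlapped for Psmb5.

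Psmb6, the constitutive caspase-like subunit, was at 39.7 and 38.2 CPM in WT, 51.5 and 50.7 CPM in ON, and 38.2 and 49.8 CPM in OFF, and its immunoproteasome counterpart Psmb9 at 49.9 and 59.3 CPM in WT, 67.1 and 60.7 CPM in ON, and 59.3 and 57 CPM in OFF. Both ON libraries were above both WT libraries in each, by 0.39 and 0.23 on the log2 scale (adjusted p = 0.103 and 0.274). Psmb7, the constitutive trypsin-like subunit, was at 26.6 and 23.2 CPM in WT, 33.1 and 26.3 CPM in ON, and 25.3 and 30.3 CPM in OFF, and the ranges of all 3 groups overlapped. Psmb10, which replaces it in the immunoproteasome, was at 37.4 and 46.7 CPM in WT, 53.5 and 52.5 CPM in ON, and 45.1 and 50.2 CPM in OFF (ON against WT 0.33 ± 0.14, adjusted p = 0.142). None of these 4 was called in any comparison. Psmb9 shares 212 exon bases with Tap1 on the other strand, and Psmb7 405 with Nek6. Psmb8 shares 498 with Gm20496 on the other strand, a gene with 4 to 16 counts per library. Whether the authors counted by strand is not stated in the labels.

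The immunoproteasome genes Psmb8, Psmb9 and Psmb10 supplied most of the catalytic counts in every group, and Psmb8 the largest part of them. Their share was 79.8% in WT 1 (95% Clopper-Pearson interval 78.7% to 80.7%), 82.7% in WT 2 (81.8% to 83.6%), 82.5% in ON 1 (81.8% to 83.2%), 83.7% in ON 2 (83.0% to 84.4%), 82.8% in OFF 1 (81.9% to 83.6%) and 81.4% in OFF 2 (80.6% to 82.3%); these intervals cover counting error only. The means were 81.2% ± 2.08 in WT, 83.1% ± 0.873 in ON and 82.1% ± 0.947 in OFF (SD, n = 2), and the ranges of ON, OFF and WT overlapped, so no shift of the share was seen beyond the spread of libraries. Per kilobase of exon the mean shares were 73.4%, 75.0% and 74.0%. With Psmb8 left out the shares of counts were 57.1% ± 4.91 in WT, 55.7% ± 0.744 in ON and 56.2% ± 2.48 in OFF. Summed immunoproteasome CPM were 298 and 330.3 for WT, 462 and 455 for ON, and 364 and 393 for OFF, and constitutive CPM 75.6 and 69.1, 98.1 and 88.3, and 75.7 and 89.6. Within pairs, Psmb8 exceeded Psmb5 per kb by 5.69 to 8.03 times, Psmb10 exceeded Psmb7 by 2.82 to 4.04 times, and Psmb9 stood at 0.586 to 0.794 times Psmb6, over the 6 libraries. In counts not divided by exon length Psmb9 was above Psmb6 in all 6 libraries. The order of Psmb9 and Psmb6 thus depends on the lengths used, the union lengths of 3660 and 1872 bases.

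**Figure D2:**
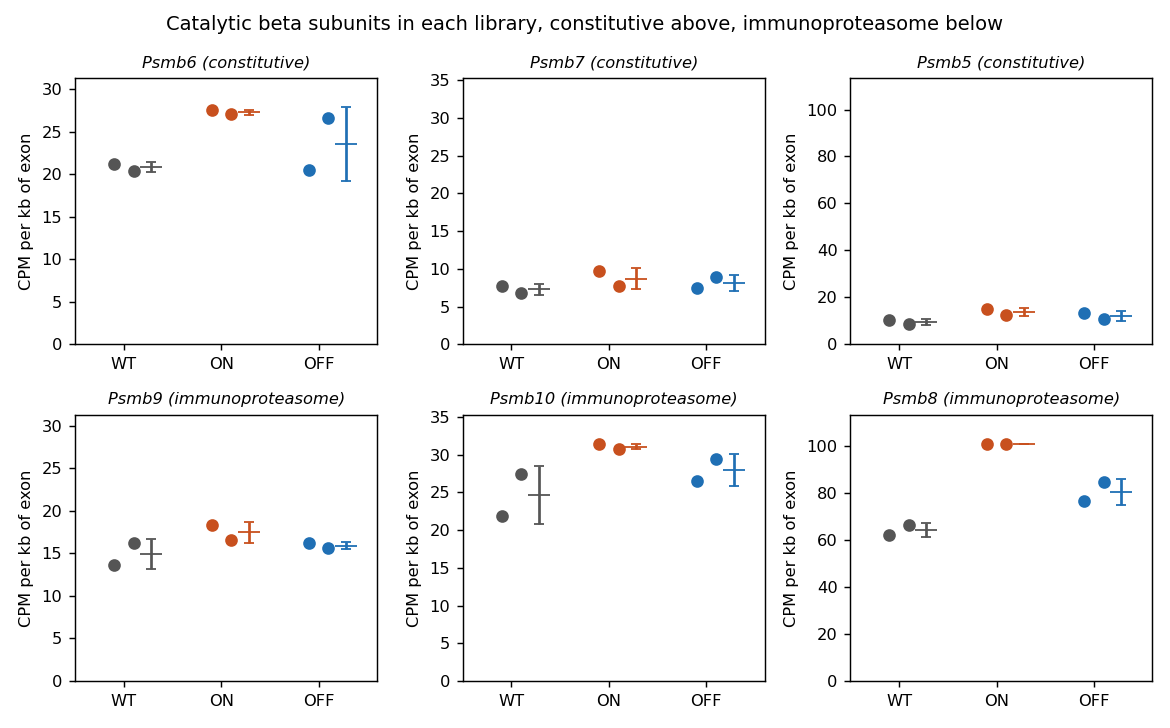
CPM per kb of exon of the 6 catalytic beta genes in each library (points), with the mean and SD of each group beside them; constitutive genes are above and the immunoproteasome gene of the same active site below, on the same linear axis from 0. Psmb8 stands far above Psmb5 in all 6 libraries, Psmb10 above Psmb7, and Psmb9 below Psmb6. In CPM not divided by exon length Psmb9 was above Psmb6 in all 6 libraries.

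In the base of the regulatory particle, whose ATPases unfold substrates, all 6 ATPase genes had a log2 fold change above 0 in ON against WT (median 0.31) and below 0 in OFF against ON (median -0.25). Psmc1 and Psmc3 were called in ON against WT, and Psmc2, Psmc4, Psmc5 and Psmc6 were not (log2 fold changes from 0.24 to 0.34). Psmc1 (ENSMUSG00000021178, chromosome 12, 100110154 to 100123405) was counted at 55.7 and 57 CPM in WT, 90.2 and 94.9 CPM in ON, and 61.8 and 66.6 CPM in OFF. ON was above OFF and OFF above WT, with no overlap. It rose 1.64-fold in ON against WT (0.72 ± 0.11 on the log2 scale, adjusted p = 0.00442), which was the smallest adjusted p of any member, and in OFF against ON it had -0.53 ± 0.11 (adjusted p = 0.0687; 0.0213 in DESeq2).

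Psmc3 (ENSMUSG00000002102, chromosome 2, 91054009 to 91066369), another ATPase of the ring, stood at 83.1 and 83.3 CPM in WT, 129 and 127 CPM in ON, and 94 and 105 CPM in OFF. The order of the groups was the same as for Psmc1, and the WT libraries were nearly equal, as were the ON libraries. Its rise was 1.54-fold (log2 fold change 0.62 ± 0.11, adjusted p = 0.00853), and OFF against ON gave -0.36 ± 0.11 (adjusted p = 0.145). Psmc3 shares 215 of its 2607 exon bases with Slc39a13 on the other strand. The calls of Psma4, Psmb8, Psmc1 and Psmc3 in ON against WT were lost only without WT 1 or WT 2, among 17 alternatives, with adjusted p from 0.0731 to 0.109 and log2 fold changes from 0.61 to 0.83 there.

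Of the 11 non-ATPase genes of the regulatory particle, which hold the ubiquitin receptors, the deubiquitinase and the scaffold, 11 had a log2 fold change above 0 in ON against WT (median 0.36) and 1 was called. That was Psmd4, a receptor for ubiquitin chains (ENSMUSG00000005625, chromosome 3, 95032694 to 95042614), at 134 and 131 CPM in WT, 160.2 and 235 CPM in ON, and 130.3 and 135 CPM in OFF. ON 2 stood apart at 1.47 times ON 1, and the OFF and WT ranges overlapped. Its rise was 1.49-fold (log2 fold change 0.58 ± 0.17, adjusted p = 0.0458). The call was lost in 9 of 17 alternatives, and without ON 2 the log2 fold change was 0.30 (adjusted p = 0.152). In OFF against ON it was -0.58 ± 0.17 (adjusted p = 0.122, 0.0372 in DESeq2 and 0.00950 without ON 1), and OFF against WT gave 0.00.

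Psmd2, the scaffold subunit on which ubiquitin-like shuttles dock, was at 92.4 and 92.7 CPM in WT, 124 and 119.8 CPM in ON, and 112 and 130.2 CPM in OFF. Both ON and both OFF libraries were above WT, by 0.39 ± 0.12 and 0.39 ± 0.12 on the log2 scale, and neither difference was called (adjusted p = 0.0543 and 0.0898). Psmd8 followed the same pattern, at 56.2 and 54.6 CPM in WT, 75 and 67.2 CPM in ON, and 60 and 84.8 CPM in OFF, with OFF 2 highest. Psmd7, the partner of the deubiquitinase in the lid, was at 51.4 and 54 CPM in WT, 63.1 and 84.1 CPM in ON, and 55 and 55.6 CPM in OFF, so that ON 2 was 1.33 times ON 1 (ON against WT adjusted p = 0.0563). Psmd14, the deubiquitinase itself, was at 38.1 and 35.5 CPM in WT, 54.1 and 47 CPM in ON, and 37.4 and 56.4 CPM in OFF (adjusted p = 0.131). The smallest difference of the group in ON against WT was that of Psmd11, 0.13 ± 0.12. Psmd11 has a copy of 97.9% identity over 1501 aligned bases, A730017L22Rik, with 200 to 235 counts per library.

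With all 6 libraries, the largest log2 fold change of any member was that of an activator. Psme1, which encodes the alpha subunit of PA28 (ENSMUSG00000022216, chromosome 14, 55578123 to 55581529), was counted at 297 and 319.8 CPM in WT, 441 and 737 CPM in ON, and 347 and 311 CPM in OFF. Both ON libraries were above the other 4, but ON 2 was 1.67 times ON 1, the widest gap between the ON libraries of any tested member, and OFF and WT overlapped. Psme1 rose 1.91-fold in ON against WT (log2 fold change 0.93 ± 0.21, adjusted p = 0.0189). OFF against ON gave -0.84 ± 0.21, not called (adjusted p = 0.0847; 0.00188 in DESeq2, and 0.00317 without ON 1). OFF against WT gave 0.09 ± 0.21 (adjusted p = 0.854). With ON 2 left out the log2 fold change of ON against WT was 0.54 for Psme1, below those of Psmc1 (0.70), Psme2 (0.70), Psmb8 (0.68), Psmc3 (0.65) and Psma4 (0.60).

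Psme2, the beta subunit of PA28 (ENSMUSG00000079197, chromosome 14, 55587441 to 55591113), had 95.2 and 98.9 CPM in WT, 155 and 127 CPM in ON, and 97.8 and 115 CPM in OFF. Here ON 1 was the higher ON library, and OFF and WT overlapped. It rose 1.45-fold in ON against WT (0.54 ± 0.14, adjusted p = 0.0298), and OFF against ON gave -0.41 ± 0.14 (adjusted p = 0.157). Psme2b (ENSMUSG00000078153, chromosome 11, 48945354 to 48946190), which GENCODE marks as a retrogene, went the other way, at 47.3 and 43.3 CPM in WT, 28 and 33.9 CPM in ON, and 26.1 and 27.6 CPM in OFF. Both WT libraries were above the other 4. It fell by 0.55 on the log2 scale in ON against WT (SE 0.14, adjusted p = 0.0301) and by 0.75 in OFF against WT (SE 0.14, adjusted p = 0.0160). Leaving out ON 1 ended the calls of both genes in ON against WT (adjusted p = 0.0811 for Psme2 and 0.109 for Psme2b), and leaving out OFF 1 or OFF 2 that of Psme2b in OFF against WT (0.0711 and 0.0558).

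Psme2 and Psme2b are nearly the same sequence, with 99.4% identity over 794 aligned bases. Their longest open reading frames, both of 720 bases, differ at 5 positions counted from the start codon of Psme2: C312T, A369G, C489T, C519T and C543T, with the base of Psme2 first. All 5 lie at the last base of a codon, 0 change the encoded residue, and the first 311 bases of the frames are identical, so a read from those bases fits both genes. The stretch from base 489 to 548, which holds 3 of the differences, is shown with those bases in capitals.
Psme2: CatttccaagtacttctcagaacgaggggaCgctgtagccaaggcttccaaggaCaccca
Psme2b: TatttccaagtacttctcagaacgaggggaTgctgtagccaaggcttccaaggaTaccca

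Added together, Psme2 and Psme2b came to 142 and 142 CPM for WT, 183 and 161 for ON, and 124 and 142 for OFF. Counted as 1 gene, an alternative chosen after the values were seen, they gave a log2 fold change of 0.27 ± 0.12 in ON against WT (adjusted p = 0.172), a value that tests neither call, since opposite differences cancel in a sum. The share of Psme2b in the sum was 33.2% and 30.5% for WT, 15.3% and 21.1% for ON, and 21.1% and 19.4% for OFF, with WT above the other groups. Psme2b also shares 41 exon bases on the same strand with 9930111J21Rik1, which stood at 85.8 and 88.3 CPM in WT, 37.3 and 57.6 CPM in ON, and 56.8 and 46.6 CPM in OFF and fell in ON against WT (log2 fold change -0.87 ± 0.19, adjusted p = 0.0169) and in OFF against WT (-0.75 ± 0.19, adjusted p = 0.0483). Its part in the values of Psme2b was not tested. How reads that fit both genes were assigned is uncertain, and reads with more than 1 alignment stand in a separate row of the table.

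Psme3, the nuclear activator PA28 gamma, was at 65.5 and 63.2 CPM in WT, 79.4 and 74.9 CPM in ON, and 68.1 and 85.3 CPM in OFF, and Psme4, the large activator PA200, at 70.8 and 73.8 CPM in WT, 77.9 and 68.8 CPM in ON, and 76.1 and 85.5 CPM in OFF. Neither was called in any comparison (ON against WT 0.26 ± 0.13 and 0.02 ± 0.12; adjusted p = 0.222 and 0.930). Psmf1, which encodes the inhibitor PI31, was one of 3 members lower in both ON libraries than in both WT libraries, at 28 and 28.8 CPM in WT, 27.5 and 19.2 CPM in ON, and 33 and 31.4 CPM in OFF. ON 2 was 0.699 times ON 1, the reverse of Psme1. OFF against ON gave 0.47 ± 0.17 for Psmf1 (unadjusted p = 0.0239, adjusted p = 0.192; adjusted p = 0.0322 without ON 1), the largest positive value of any member in that comparison.

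**Figure D3:**
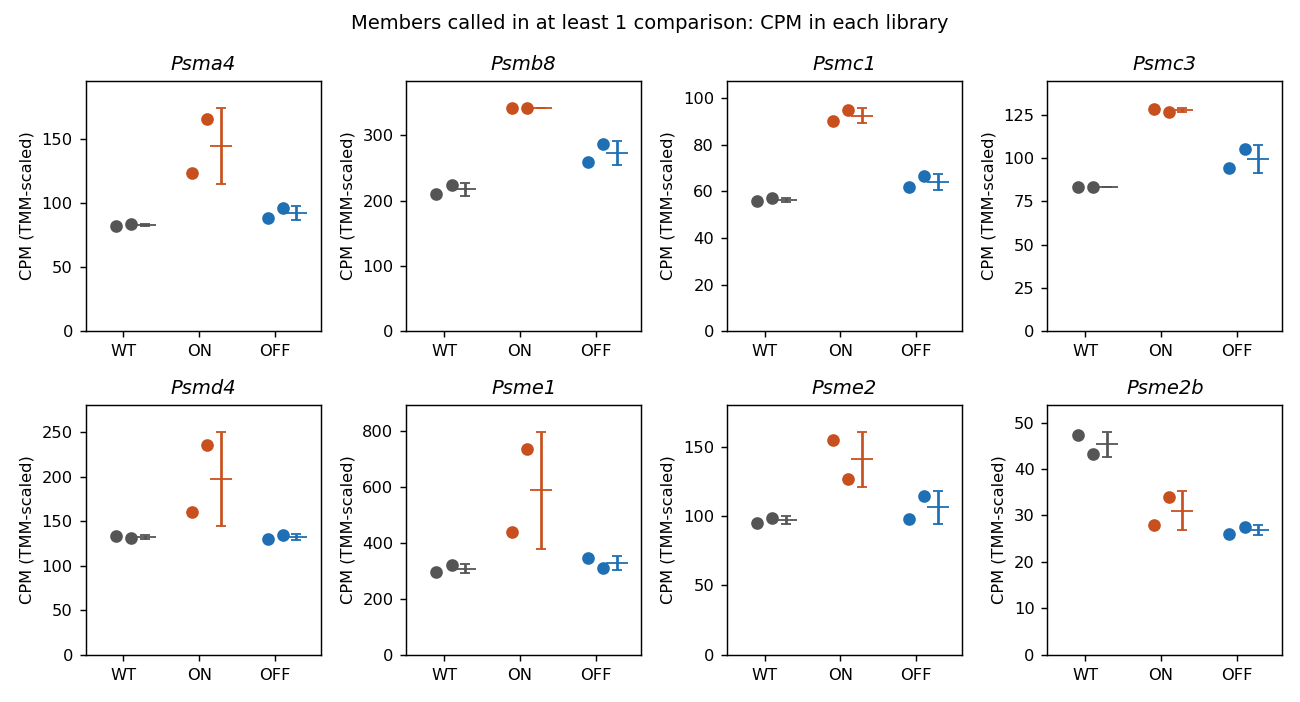
TMM-scaled CPM of the 8 members called in at least 1 comparison, in each library (points), with the mean and SD of each group beside them, on linear axes from 0. In 7 genes both ON libraries stand above both WT libraries, and in Psme2b both stand below; the ON libraries of Psme1, Psmd4 and Psma4 lie far apart.

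Of the 7 tested assembly chaperone genes 6 had a log2 fold change above 0 in ON against WT. None was called in any comparison, and their median log2 fold change was 0.08 in ON against WT, -0.07 in OFF against ON and -0.02 in OFF against WT. Summed CPM were 96.1 and 94.8 for WT, 104 and 109 for ON, and 94.2 and 98.4 for OFF, with both ON libraries above the other 4. Among single chaperone genes only Psmg4 had both ON libraries above the other 4. Summed CPM of the chaperones of the ATPase ring alone were 55 and 51.9 for WT, 57.4 and 54.5 for ON, and 50.5 and 57.6 for OFF. Those ranges overlapped. Psmd5 and Psmd9, chaperones of the ATPase ring, differed by 0.01 each between ON and WT (SE 0.14 and 0.17). Psmd10, the other chaperone of that ring, was at 10.3 and 8.37 CPM in WT, 11.3 and 12.1 CPM in ON, and 9.47 and 12.7 CPM in OFF. Its log2 fold change in ON against WT was 0.33 ± 0.21 (adjusted p = 0.326). Psmg4, a chaperone of the alpha ring, was at 17 and 19 CPM in WT, 21.9 and 33.5 CPM in ON, and 18.6 and 14.9 CPM in OFF. ON 2 was 1.53 times ON 1, and the log2 fold changes of 0.62 ± 0.21 (ON against WT) and -0.72 ± 0.21 (OFF against ON) were not called (adjusted p = 0.0813 and 0.127). Without ON 1 both were (0.0113 and 0.0219). Psmg2, which pairs with the product of Psmg1 under the forming alpha ring, was at 12.9 and 11.7 CPM in WT, 10.6 and 9.66 CPM in ON, and 12.2 and 13 CPM in OFF, lowest in both ON libraries (adjusted p = 0.318 in ON against WT).

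A few tissue-restricted or unrelated genes also fell under the symbol rule. Psma8, the alpha subunit of the testis, had 0 and 1 counts in WT, 2 and 0 counts in ON, and 2 and 0 counts in OFF, and Psmb11, the catalytic subunit of thymic cortical epithelium, had 5 and 9, 3 and 3, and 1 and 5; both stood under the filter. Psmc3ip encodes a factor of meiotic recombination and is no proteasome subunit. It was at 4.13 and 5.12 CPM in WT, 6.64 and 7.48 CPM in ON, and 4.45 and 3.91 CPM in OFF, with log2 fold changes of 0.61 ± 0.24 in ON against WT and -0.76 ± 0.24 in OFF against ON (adjusted p = 0.118 and 0.144). Leaving it out moved the members' median from 0.291 to 0.288 in ON against WT.

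The 2 libraries of a group differed by more in some members than in others. OFF 2 was above OFF 1 in 40 of 48 members, with a median log2 ratio of 0.17 (all genes 0.01). ON 2 was above ON 1 in 15 of 48 (median -0.13; all genes 0.00), and WT 2 above WT 1 in 21 of 48 (median -0.03; all genes -0.01). The median absolute log2 ratio was 0.07 in WT, 0.19 in ON and 0.23 in OFF, beside 0.17, 0.28 and 0.24 over all genes. Summed proliferation genes differed in the same direction as most members, with ON 2 below ON 1 and OFF 2 above OFF 1. Psme1, Psmg4, Psmd4, Psma4 and Psmd7 had the highest ratios of ON 2 to ON 1, from 1.33 to 1.67, and Psma6 and Psmf1 had the lowest, 0.690 and 0.699. Cd3g, which encodes a chain of the T cell receptor complex, was also apart in ON 2, at 473 and 447 CPM in WT, 534 and 1060.4 CPM in ON, and 492 and 507 CPM in OFF. Whether these gaps share a source was not tested.

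**Figure D4:**
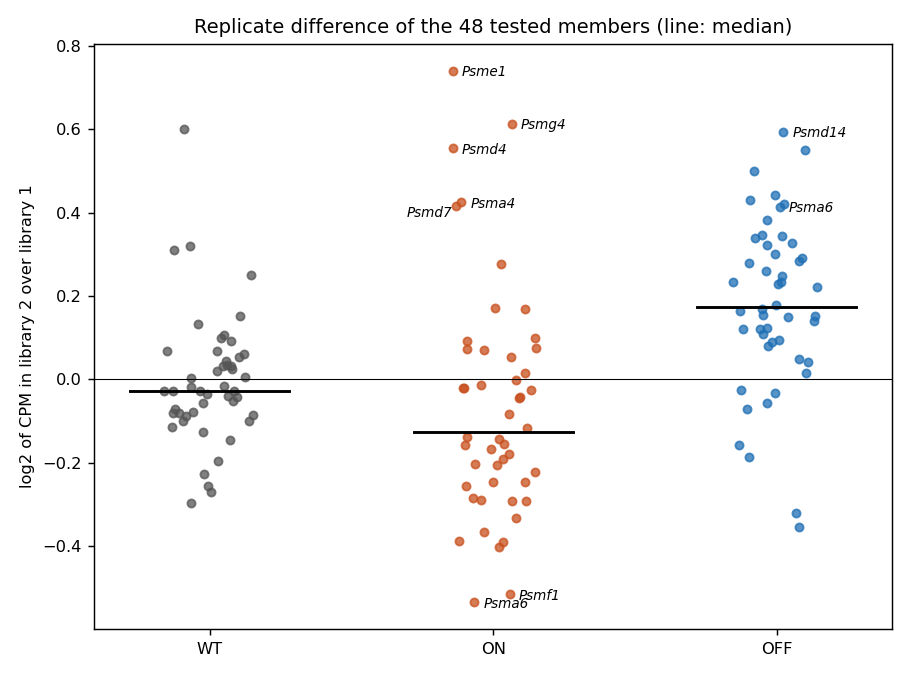
Log2 ratio of CPM in library 2 over library 1 of each group for the 48 tested members (points; sideways scatter has no meaning), with the median as a line. Most OFF points lie above 0 (40 of 48) and most ON points below, while Psme1, Psmg4, Psmd4, Psma4 and Psmd7 lie highest in ON.

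Genes around the proteasome were read from 3 lists. Of 15 proteasome parts and regulators outside the symbol rule, 2 rose and 1 fell in ON against WT, beside 9.68% and 5.16% of all genes. Their median log2 fold change was 0.15, and none was called in the other comparisons. Pomp, the maturation factor that closes the core particle, was at 41.1 and 39.3 CPM in WT, 65.2 and 58.2 CPM in ON, and 38.7 and 51.6 CPM in OFF and rose (log2 fold change 0.62 ± 0.15, adjusted p = 0.0269). Sem1, a small lid subunit, rose by 0.48 ± 0.14 (adjusted p = 0.0433), and Ube3c, a ubiquitin ligase found on proteasomes, fell by 0.43 (adjusted p = 0.0467). Nfe2l1, a transcription factor of proteasome genes, was at 72.3 and 71.9 CPM in WT, 72.2 and 95.4 CPM in ON, and 72.3 and 77.5 CPM in OFF and was not called (adjusted p = 0.345), nor was the ubiquitin receptor gene Adrm1 (adjusted p = 0.0708).

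Among 15 genes of ubiquitin supply and shuttles, 1 rose and 1 fell in ON against WT (median 0.05), beside 9.68% and 5.16% of all genes. Ubb, which encodes polyubiquitin, was at 480.3 and 452 CPM in WT, 779 and 923 CPM in ON, and 525 and 627 CPM in OFF and rose 1.83-fold (adjusted p = 0.00427). Ubqln2, a shuttle for ubiquitinated proteins, was at 54.6 and 57.6 CPM in WT, 39.4 and 33.4 CPM in ON, and 51.4 and 56.6 CPM in OFF and fell (log2 fold change -0.62 ± 0.13, adjusted p = 0.0148). Of 12 genes of MHC class I peptide supply 3 rose in ON against WT (median 0.26), beside 9.68% of all genes. The 3 were the peptide transporter gene Tap1 (0.46 ± 0.11, adjusted p = 0.0266), the peptide loading gene Tapbp (0.49 ± 0.12, adjusted p = 0.0262) and the chaperone gene Calr (0.92 ± 0.19, adjusted p = 0.0133). Calr was at 348 and 318 CPM in WT, 487 and 772 CPM in ON, and 479 and 479.9 CPM in OFF, so that ON 2 was 1.59 times ON 1. The regulators Irf1 (0.12) and Nlrc5 (0.22) were not called (adjusted p = 0.611 and 0.446). No gene of these lists was called in OFF against ON, beside 1.03% of all genes, or in OFF against WT, beside 6.83%. At an unadjusted p under 0.05, 6 were higher and 3 lower in OFF than in ON, beside 9.11% and 9.96% of all genes. By list they were 3 and 2 of the 15 proteasome parts and regulators, 2 and 1 of the 15 ubiquitin genes, and 1 and 0 of the 12 MHC class I genes. In OFF against WT 8 were higher and 0 lower at that threshold, beside 12.4% and 9.70% of all genes. The 8 were 0 of the 15 proteasome parts and regulators, 3 of the 15 ubiquitin genes and 5 of the 12 MHC class I genes.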

How the data were processed

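RNA-seq data of total RNA from 6 libraries were used, 2 in each of 3 groups taken from the sample titles. Reads were aligned to GRCm38 per the labels' protocols. R 3.6.2 and edgeR are named in the submitters' processing notes, while for aligner, counter and strand setting nothing is given in the sources used here. Raw counts per gene are what the authors deposited, and 5 summary rows of their table stayed out of library sizes and tests. GENCODE mouse release 21 (GRCm38) matched 47310 of 47729 identifiers and not the other 419.

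Low genes were dropped with edgeR's filterByExpr at a minimum count of 10 and a minimum total of 15. Counts were scaled by TMM and tested by quasi-likelihood in edgeR (robust), with all 6 libraries in 1 fit, no replicate block, 3 residual degrees of freedom, and Benjamini-Hochberg adjustment over the 15780 genes kept. The steps were tested on simulated counts that gave every gene the same spread beyond counting error and set changes in OFF only. In these libraries the spread differed between genes. Library totals were 17025551 to 19319183 gene counts, and the members under the filter were not compared. Near-identical copies were found with blastn (at least 95% identity over at least 200 bases), and promoters came from RefSeq on GRCm38.p6. Versions were blastn 2.17.0, DESeq2 1.42.0, limma 3.58.1, edgeR 4.0.16 and R 4.3.3. The members, the lists and the named genes were chosen with earlier results of these data known. Library values are given for members called in any comparison, the catalytic genes, the activators and Psmf1, the 3 members of largest change in each comparison, and further members named to show a role's range. Alternatives were 2 other scalings, 2 other filters, limma-voom, DESeq2, edgeR's older method, fits of the 4 libraries compared or of protein-coding genes alone, a replicate block, an adjusted p under 0.01 and leaving out each library. Counting Psme2 and Psme2b as 1 gene was added after seeing the data. Single results of some genes in the lists are not reported here.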

Additional observations from a re-analysis of the deposited data

How the results depend on the processing

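Members called in ON against WT were 8, and from 6 to 10 with another scaling, filter, method or gene set, when 4.28% to 18.5% of all genes were called. They were 5 with the replicate block (9.13% of all genes) and 4 at an adjusted p under 0.01 (4.80%). Without 1 library they ran from 0 (WT 1 or WT 2 left out; 2.92% and 2.08%) to 12 (OFF 1 or OFF 2 left out; 13.1% and 13.4%). In OFF against ON members called were 0, 4 in DESeq2 (3.15%), and 0 to 7 without 1 library, with 7 without ON 1 (3.55%). In OFF against WT they were 1, 0 at an adjusted p under 0.01 (1.89%), and 0 to 2 without 1 library, when 1.27% to 9.18% of all genes were called. The members' median in ON against WT was 0.22 with upper quartile scaling, and without 1 library it ran from 0.29 to 0.38. A fit with 1 library left out assumes that the lone library of that group varies as the other groups do. The labels do not say that replicate numbers pair libraries, and deviations of same-numbered libraries correlated at 0.08 (WT and ON), -0.21 (WT and OFF) and -0.20 (ON and OFF) across genes, so the numbers were taken as names only. With the replicate block the counts of members were 5, 0 and 1, and the calls of Psmd4, Psme2 and Psme2b in ON against WT were lost.

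Differences near 0 changed sign, none of them called. Psmd4 in OFF against WT became -0.0196 with RLE scaling, -0.0760 with upper quartile scaling, -0.0543 for genes of mean CPM 1 or more, -0.0195 in DESeq2, -3.3e-06 in limma-voom, -0.0440 in a fit of the 4 libraries compared, -0.0450 in one of protein-coding genes and -0.00245 with the replicate block. Psmd2 and Psme3 in OFF against ON became 0.0331 each with no filter, Psmd8 in OFF against ON -0.00670 for genes of mean CPM 1 or more, and Psme4 in ON against WT -0.0514 with upper quartile scaling, -0.00033 for genes of mean CPM 1 or more and -0.00997 among protein-coding genes. Psme2 in OFF against WT became -0.0972 when counted with Psme2b. Ranges without 1 library that crossed 0 were, in OFF against WT, -0.0313 to 0.384 for Psmb6, -0.0159 to 0.253 for Psmb9, -0.280 to 0.0492 for Psmc3ip, -0.0294 to 0.0542 for Psmd4 and -0.243 to 0.0419 for Psmg4; in OFF against ON, -0.264 to 0.0843 for Psmb7, -0.143 to 0.109 for Psmd2, -0.266 to 0.266 for Psmd8 and -0.201 to 0.157 for Psme3; and in ON against WT -0.0499 to 0.133 for Psme4. The cause of these changes was not tested. Immunoproteasome shares per kb were 73.4%, 75.0% and 74.0%. With 0 to 9 counts per library, a difference in Psma8 or Psmb11 was not detectable at this depth.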
